A study of Mus musculus with 6 samples.

Results

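The genes described here encode the respiratory chain of the mitochondrion, the machinery that moves electrons from NADH and succinate to oxygen and uses the resulting proton gradient to make ATP. They were taken by symbol alone, with no measured value: protein-coding mouse genes beginning with Nduf, Sdha to Sdhd, Uqcr, Cox4 to Cox8 or Atp5, and the 13 protein-coding genes of the mitochondrial genome, which carry the prefix mt-. This gave 106 of the 52489 gene IDs that had a symbol. Of the 106 members, 93 are nuclear: 46 belong to complex I (NADH dehydrogenase), 4 to complex II (succinate dehydrogenase), 8 to complex III (the cytochrome bc1 complex), 18 to complex IV (cytochrome c oxidase) and 17 to complex V (ATP synthase). The symbols also caught 10 genes that are not stable subunits, among them 8 Ndufaf genes for assembly factors of complex I.

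Alveolar type II (ATII) cells make surfactant and serve as progenitors of the alveolar epithelium of the lung, and the study asked how they respond to interleukin 4 during aging. Per the labels, 3 expression libraries were made from lungs of mice with the genotype IL4Ra WT: 1 of freshly sorted ATII cells (day 0, young and old mice), 1 of cultured cells from mice of both ages (day 13) and 1 of cultured cells from the young alone (day 13). Cultures grew as alveolarspheres without serum or feeder cells, and wells received the cytokine at 10 ng/ml or PBS from day 3. The labels give the treatment of every library as mixed sample, and the cells were sorted live. Strain and age in months are not given in the sources used here, and each group has 1 library.

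Barcodes carried 3 library tokens that matched no label, so each library has a letter, from A to C in order of first appearance, and no cell was assigned to a day, an age or a treatment. Differences between libraries are therefore differences between 3 sets of cells and cannot be told apart from any technical difference between the libraries. Libraries A, B and C held 16367, 5593 and 14580 kept cells, with median counts of 3749, 8349 and 3341 unique molecular identifiers (UMIs, 1 per captured RNA molecule) per cell. Levels are counts per 1000000 UMIs (CPM) summed over all cells of a library or class, and ranges in parentheses are 95% exact intervals, which hold counting error and no other. Between 20 and 67 barcode sequences were shared by a pair of libraries. All 11 ATII markers reached 20 CPM in each library, while the summed markers of fibroblasts or smooth muscle and of erythroid cells stayed under 0.5 CPM. Endothelial markers summed to 88.8 CPM in library A and under 1 CPM in libraries B and C, and ciliated markers to 150.3, 3.80 and 12.7 CPM; those of airway secretory cells were at 2568, 131 and 59.3 CPM in sum. Lymphoid markers, with 1 of 6 genes at 20 CPM, summed to 28.1, 132 and 145 CPM. The part of these markers in the results was not tested.

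Respiratory complexes I, III, IV and V are built from subunits of both genomes, and complex II from nuclear genes alone. Mitochondrial genes are read from both strands of a small circular DNA into long transcripts that are then cut apart, whereas nuclear members are separate genes whose promoters often carry sites for NRF1 and for ETS factors such as GABP. In the lung, ATII cells are rich in mitochondria and spend ATP on surfactant synthesis and secretion.

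What a count of a mt- member can mean depends on sequence, because part of the mitochondrial genome has been copied into nuclear chromosome 1. The last 90 bases that align between mt-Co3, a catalytic-core subunit of complex IV, and its annotated chromosome 1 copy Gm28437 are shown first; they stop 1 base short of the end of mt-Co3. They are shown since a read from one cannot be told from a read from the other. The end of mt-Cytb, the complex III subunit of the mitochondrial genome, is shown as a case with no end shared with another annotated transcript.
mt-Co3: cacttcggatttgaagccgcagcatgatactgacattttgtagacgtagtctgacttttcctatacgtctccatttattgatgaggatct
Gm28437: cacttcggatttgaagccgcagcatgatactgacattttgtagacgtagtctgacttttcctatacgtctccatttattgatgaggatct
mt-Cytb: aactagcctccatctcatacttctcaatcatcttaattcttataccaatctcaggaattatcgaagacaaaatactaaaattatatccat
The mt-Co3 gene lies at chrM:8607-9390 (build GRCm38, plus strand), Gm28437 at chr1:24613189-24613971 (minus strand) and mt-Cytb at chrM:14145-15288 (plus strand). Over 783 aligned bases, mt-Co3 and Gm28437 had 0 mismatches. Within the last 500 bases of each transcript, mt-Co1, mt-Co2, mt-Co3, mt-Atp6, mt-Nd3 and mt-Nd4l shared between 94.9% and 99.8% of their 90-base windows with such a copy. Of the other mt- members, mt-Nd2 shared 9.73%, and mt-Nd1, mt-Nd4, mt-Nd5, mt-Nd6, mt-Atp8 and mt-Cytb shared none. Only annotated transcripts were searched, so a copy outside them would not have been seen. The levels of the 6 shared genes are uncertain for that reason, because a counter can drop or split reads that match 2 places, and how such reads were counted is not given in the sources used here.

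Promoters of nuclear members are shown for 3 genes that return below: Atp5c1, the gamma (rotor) subunit of ATP synthase, Sdhd, a membrane anchor of complex II, and Cox6a1, the broadly expressed form of a complex IV subunit. Each runs from 250 bases before to 50 after a start in RefSeq (GRCm38.p6), on the minus strand. RefSeq gives Atp5c1 a second promoter window, chr2:10080461-10080760, which holds neither motif and is not printed. Capitals mark matches to the NRF1 motif (GCGC, any base, T, then GCGC) or the ETS motif CCGGAAG on either strand.
Atp5c1, chr2:10080383-10080682: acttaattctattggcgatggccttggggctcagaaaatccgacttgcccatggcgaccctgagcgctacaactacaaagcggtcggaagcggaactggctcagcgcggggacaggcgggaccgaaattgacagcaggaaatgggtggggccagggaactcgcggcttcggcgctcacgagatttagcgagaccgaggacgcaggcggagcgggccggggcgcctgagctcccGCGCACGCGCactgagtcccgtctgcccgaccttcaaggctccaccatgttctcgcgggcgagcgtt
Sdhd, chr9:50603800-50604099: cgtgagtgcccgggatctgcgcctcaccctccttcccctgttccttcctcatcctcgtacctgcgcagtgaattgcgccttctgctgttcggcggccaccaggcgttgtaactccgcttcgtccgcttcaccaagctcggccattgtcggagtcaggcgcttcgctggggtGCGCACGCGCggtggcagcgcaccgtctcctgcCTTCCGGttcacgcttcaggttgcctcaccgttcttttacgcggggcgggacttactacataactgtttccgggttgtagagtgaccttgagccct
Cox6a1, chr5:115348909-115349208: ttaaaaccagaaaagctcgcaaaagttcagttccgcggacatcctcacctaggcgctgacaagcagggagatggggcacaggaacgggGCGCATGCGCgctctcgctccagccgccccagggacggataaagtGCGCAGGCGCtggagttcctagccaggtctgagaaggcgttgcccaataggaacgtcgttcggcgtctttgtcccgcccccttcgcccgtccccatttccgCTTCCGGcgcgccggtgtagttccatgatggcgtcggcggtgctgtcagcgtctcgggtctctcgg
RefSeq promoters were matched for 74 of the 93 nuclear members. The NRF1 motif was present in 25.7% of them, against 5.19% of all 27025 genes with such a promoter. The ETS motif was present in 24.3% against 9.93%, and the YY1 motif AAGATGGC in 13.5% against 3.19%. The letters ACGTG of the hypoxia response element occurred in 23.0% of members and 21.8% of all genes. These are matches of letters in a window of 300 bases, not measured binding.

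Nuclear and mt- members differed between libraries in opposite directions. Nuclear members summed to 14437 CPM in library A, 35748 CPM in B and 34763 CPM in C. The 13 mt- members summed to 15459, 6079.6 and 5269 CPM. The UMI ratio of mt- to nuclear members was thus 1.07 in library A, 0.170 (0.169 to 0.171) in B and 0.152 (0.151 to 0.152) in C. Libraries B and C were alike in this ratio when set beside library A. No deposited barcode had more than 4.87%, 2.27% and 1.67% mitochondrial UMIs in libraries A, B and C. The part of these upper ends in the ratio was not tested.

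The scale of these differences depends on what they are set against, since the 4 surfactant protein genes alone took 29.2%, 14.7% and 13.0% of all UMIs in libraries A, B and C. As log2 differences from library A, summed nuclear members were higher by 1.31 in B and 1.27 in C. Taking the surfactant genes out of the total gave 1.04 and 0.97, and scaling by TMM factors gave 1.66 and 1.58. The mt- sum differed by -1.35 and -1.55, by -1.62 and -1.85 without surfactant genes, and by -0.99 and -1.24 with TMM factors. TMM moved every gene by 0.36 in B and 0.31 in C, and the directions of both sums were the same on all 3 scales. Malat1, a nuclear RNA, was also lower in B and C, at 19055, 6583 and 5247 CPM from library A to C. Its log2 differences from A, on the total of all UMIs, were -1.53 and -1.86. The part of RNA quality in the library differences was not tested.

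A member was called past the size rule when its CPM, after adding 1 CPM, differed by at least 0.5 on the log2 scale and reached 20 CPM. Both comparisons below share library A. Of 84 nuclear members at 20 CPM in any library, 69 were higher in both B and C than in A, where 31.1% of all 6060 genes measured alike were. Only Cox6a2 was lower in both, where 38.3% of all genes were. All 8 complex III members measured were higher in both, as were 15 of 16 of complex V, 33 of 43 of complex I, 10 of 13 of complex IV and 3 of 4 of complex II. Of 11 mt- members measured, 10 were lower in both libraries; mt-Co2 was lower in library C alone.

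**Figure D1:**
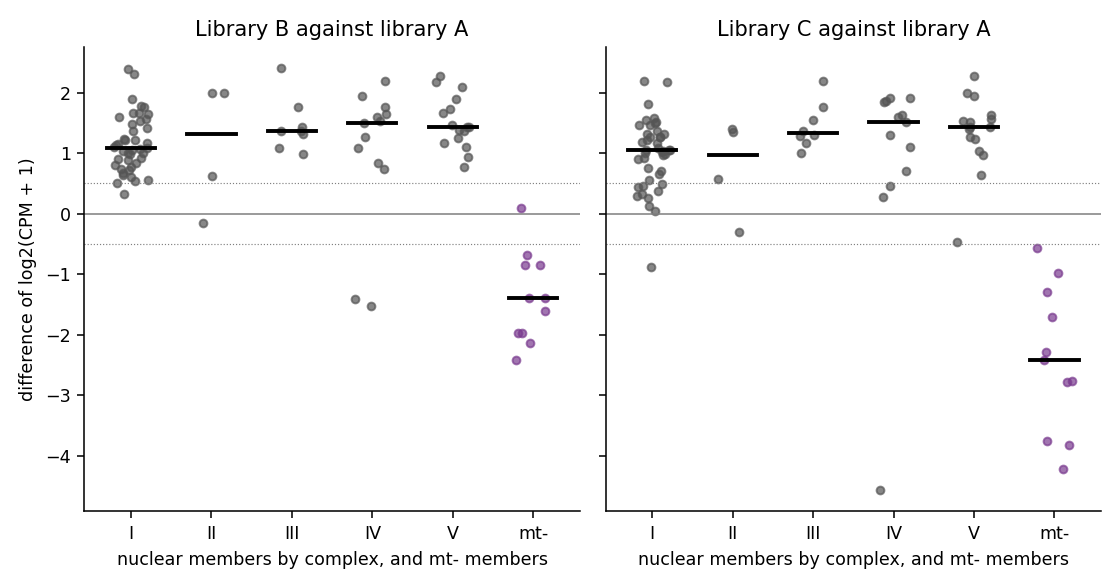
Difference of log2(CPM + 1) between library B (left) or C (right) and library A for members with at least 20 CPM in any library, by complex for nuclear members and together for mt- members. Each point is a gene, black bars are medians, dotted lines mark 0.5 and -0.5. Most nuclear points lie above 0.5, and the mt- points lie below 0 apart from mt-Co2 in library B at 0.09; the lowest nuclear point is Cox6a2, at -1.53 and -4.57.

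Beside Cox6a2, the widest ranges over libraries among nuclear members belonged to genes of different complexes. Uqcrfs1, the Rieske iron-sulfur protein of complex III, was at 63.4 CPM in library A, 340.1 in B and 294 in C. Ndufv3, an accessory subunit of the complex I flavoprotein part, was at 104, 520.4 and 475 CPM. Atp5c1 was at 149, 725 and 601 CPM, and Atp5mpl, a small subunit of the ATP synthase membrane part, at 126, 541 and 613 CPM. Ndufaf6, an assembly factor of complex I, was at 5.58, 33.5 and 29.1 CPM. These 5 were chosen for their range over libraries, and each was higher in libraries B and C than in A.

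The 6 nuclear members with the highest mean CPM shared that order of libraries. Cox8a, a small complex IV subunit, was at 614, 1856 and 1847 CPM from library A to C. Cox4i1, a regulatory subunit of the same complex, was at 677, 1429.9 and 1466 CPM, and Cox7a2 at 309, 896 and 1114 CPM. For ATP synthase, Atp5e (epsilon) was at 424, 1152 and 1155 CPM, and Atp5d (delta) at 379.7, 1045 and 1034 CPM. Uqcrh, the hinge protein of complex III, was at 474, 936 and 1169 CPM. Library A was lowest for each of the 6, and B and C lay within 0.32 of each other on the log2 scale.

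Most catalytic subunits were also lowest in library A, with Sdha as the exception. Sdha, the flavoprotein of succinate dehydrogenase, was at 65.3, 58.3 and 53.0 CPM from library A to C, and so was not past the size rule. Its partner Sdhb, the iron-sulfur subunit, was at 67.3, 272 and 173 CPM, and the anchor Sdhd at 26.0, 107 and 70.2 CPM. In complex I, Ndufs1, which carries iron-sulfur clusters, was at 20.8, 30.7 and 26.4 CPM, past the size rule in library B alone. Ndufv1, which binds NADH, was at 60.5, 109 and 98.8 CPM. Uqcrc1, a core protein of complex III, was at 49.4, 169.8 and 171 CPM. The ATP synthase subunits Atp5a1 (alpha) and Atp5b (beta) were at 278, 474 and 435 CPM, and at 252, 685 and 594 CPM. Outside the list, the mobile carrier Cycs (cytochrome c) was at 97.3, 226 and 127 CPM, and Cyc1 (cytochrome c1 of complex III, not caught by the symbol rule) at 80.0, 329.8 and 230.5 CPM.

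Several complex IV subunits have a second gene used in muscle, lung, testis or hypoxic cells, and several of these ran against the common order. Cox6a2, the heart and muscle form of Cox6a1 (chr7:128205435-128206387, minus strand), was at 189 CPM in library A, 64.6 in B and 6.99 in C. Its counterpart Cox6a1 was at 169, 529 and 484 CPM. Cox6b2, the testis form of Cox6b1, was at 25.5, 8.96 and 31.0 CPM, and Cox4i2, a form linked to lung and low oxygen, at 7.68, 2.69 and 5.91 CPM. Cox7a1, a muscle form, was at 4.32, 13.4 and 12.9 CPM. Ndufa4l2, a hypoxia-induced relative of Ndufa4, had 1 UMI in library A and was at 3.04 and 4.82 CPM in libraries B and C. Cox7b2, Cox8b and Cox8c had 0 UMIs in all 3 libraries, which allows up to 0.0616 CPM each.

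**Figure D2:**
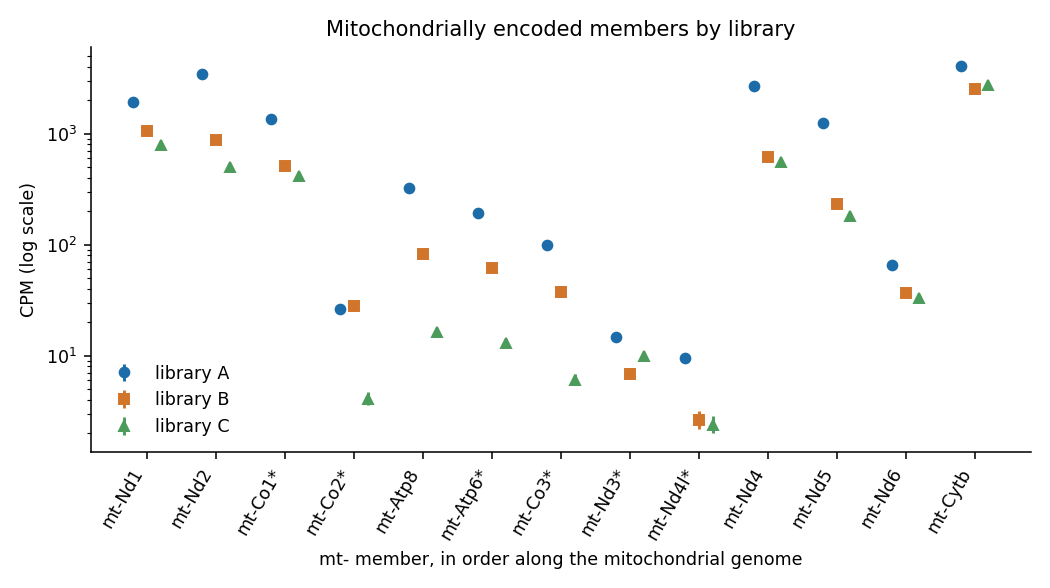
CPM of the 13 mt- members on a log axis, in their order along the mitochondrial genome, in libraries A, B and C; bars are 95% exact Poisson intervals, mostly smaller than the symbols. Stars mark the 6 genes that share over 90% of their end windows with copies on chromosome 1; mt-Cytb stays at 2519.6 CPM or above while mt-Atp8 spans 325 to 16.5 CPM.

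The mt- members did not differ to the same degree. mt-Cytb was at 4064, 2519.6 and 2747 CPM from library A to C. Among complex I members, mt-Nd1 was at 1922, 1065 and 784 CPM, mt-Nd2 at 3441, 873 and 505 CPM, mt-Nd4 at 2704, 618 and 550.3 CPM, and mt-Nd5 at 1246, 233 and 181 CPM. mt-Nd6, the only member read from the opposite strand, was at 66.1, 36.5 and 32.9 CPM. The log2 difference of C from A was -0.56 for mt-Cytb, against -2.78 for mt-Nd5 and -2.77 for mt-Nd2.

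The widest span of the mt- members was that of an ATP synthase gene. mt-Atp8, which shares no window with another annotated gene, was at 325, 82.3 and 16.5 CPM from library A to C. mt-Atp6, which overlaps it in the genome and has an annotated chromosome 1 copy, was at 191, 61.8 and 13.1 CPM. The start of mt-Atp8 lies between mt-Co2 and mt-Atp6, and the stretch of chromosome 1 between their annotated copies was not searched. In complex IV, mt-Co1 was at 1350.1, 515 and 415 CPM, mt-Co3 at 99.3, 37.2 and 6.09 CPM, and mt-Co2 at 26.2, 27.9 and 4.11 CPM. mt-Nd3 was at 14.7, 6.90 and 9.92 CPM and mt-Nd4l at 9.55, 2.65 and 2.40 CPM. The 2 mitochondrial ribosomal RNAs, which are no members, summed to 9078, 2173 and 1068 CPM. A ratio was also taken with only 6 mt- members, leaving out mt-Nd6 and those with annotated chromosome 1 copies, and the nuclear members that share none. It was 1.19, 0.191 and 0.170, with mt-Atp8 among the 6 kept.

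Libraries B and C, close in sum, differed in single members. Of 84 nuclear members, 2 were higher in C than in B and 11 lower, where 7.37% and 8.57% of all 4763 genes were. Atp5k (191 in B against 308 CPM in C) and Cox6b2 were the 2 higher in C. The lower ones included Cox6a2, Ndufb4 (103 against 24.0 CPM), Atp5l (163 against 51.7 CPM), Atp5g2 (22.6 against 9.23 CPM) and Ndufa12 (283 against 126 CPM). Of the 10 nuclear members that share at least 20% of end windows with a pseudogene or other gene, 5 were lower in C, and their median log2 difference was -0.49. Of 11 mt- members, 5 were lower in C: mt-Atp6, mt-Atp8, mt-Co2, mt-Co3 and mt-Nd2. The 66 nuclear members without a shared window had a median of -0.02, and 6 of them were lower. Ndufb4, an accessory complex I subunit, has no shared window. The part of sequence sharing in these differences was not tested.

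Dividing cells were those with any UMI of Mki67 or Top2a, which mark the proliferative part of the cell cycle. They numbered 171 of 16367 in library A, 1512 of 5593 in B and 2558 of 14580 in C. In library A, 149 of the 171 held a single such UMI. Dividing cells had more UMIs than the others, with medians of 4171 against 3747 in library A, 10266.5 against 7741 in B and 5213.5 against 3141 in C.

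Other markers differed with division as well. The 12 markers of alveolar type I (ATI) cells summed to 1068 against 1523 CPM in dividing and other cells of library B and 1249.8 against 2675 in C, and the 10 transitional markers to 2092 against 2888 and 1938 against 2805. In library A the sums were 1619 against 1635 CPM for ATI and 2383 against 2134 for transitional markers. Their part in the values below was not tested.

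Summed nuclear respiratory chain levels were nearly the same in dividing and other cells of each library. Summed nuclear members were at 15203 against 14428 CPM in library A, 35655 against 35794 in B and 34241 against 34936 in C. The log2 folds were 0.08 (0.05 to 0.10), -0.01 (-0.01 to 0.00) and -0.03 (-0.03 to -0.02). The median fold of all genes measured was 0.07, 0.15 and 0.19. None of 78 nuclear members passed the size rule in all 3 libraries, where 4.24% of all 3894 genes were higher and 0 were lower. With TMM factors, which lowered every gene by 0.18, 0.20 and 0.27 in dividing cells, the nuclear sums were at -0.11, -0.21 and -0.30. Direction in library A thus turned with the scaling. The same shifts apply to every group and gene in dividing cells below, so that log2 folds above 0 but under 0.18, 0.20 and 0.27 in libraries A, B and C turn below 0 with TMM factors.

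The mt- sum was at 14601 against 15469 CPM in dividing and other cells of library A, 6272 against 5985 in B and 5622 against 5152 in C. The log2 folds were -0.08 (-0.11 to -0.06), 0.07 (0.06 to 0.08) and 0.13 (0.11 to 0.14); with TMM factors they were -0.27, -0.13 and -0.15, so that the direction in B and C turned. In library C, 21.1% of other cells and 9.42% of dividing cells had no UMI of Malat1, a nuclear RNA. Among cells with a Malat1 UMI, the fold in library C was 0.03. By complex, the 7 mt- complex I members together had the highest fold, at -0.07, 0.13 and 0.26 in libraries A, B and C. For mt-Cytb the folds were -0.08, 0.00 and 0.03. Mitochondrial ribosomal RNA was at -0.12, -0.15 and -0.21. In library C, mt-Nd1 was at 946 against 731 CPM, mt-Nd6 at 40.5 against 30.4 CPM, and mt-Nd5 at 205 against 173 CPM.

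**Figure D3:**
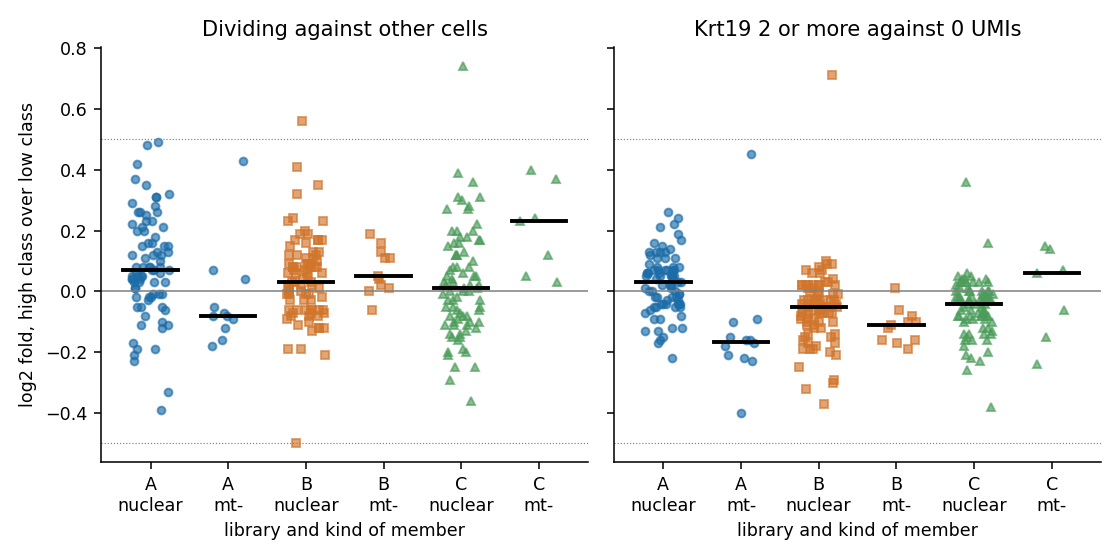
Log2 fold of each member at 20 CPM or more between dividing and other cells (left) and between cells with 2 or more Krt19 UMIs and cells with 0 (right), by library and genome. Bars are medians, dotted lines mark 0.5 and -0.5; few points reach the lines, the highest points being Ndufaf2 at 0.74 in library C (left) and Cox6a2 at 0.71 in library B (right).

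Complex I assembly factors were among the higher nuclear groups. Their sum was at log2 folds of 0.10 (-0.18 to 0.37), 0.20 (0.15 to 0.25) and 0.27 (0.21 to 0.32) in libraries A, B and C. Ndufaf2, an assembly factor that binds the complex late in its building (chr13:108002715-108158623, minus strand), was at 32.7 against 24.1 CPM in library A, 39.5 against 26.5 in B and 48.7 against 28.8 in C. Its folds of 0.56 and 0.74 passed the size rule in B and C, the only nuclear member of 79 to do so in both, where 11.0% of all 4631 genes did and 1.19% were lower past the rule. In library A, where it rests on few UMIs, its fold was 0.42 (-0.21 to 1.02). With TMM factors the folds of Ndufaf2 were 0.36 in B and 0.47 in C, so that the call ended, and 5.87% of all genes were then higher in both.

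The other leading members were subunits, apart from Ndufaf3. Ndufab1, the acyl carrier protein also used in mitochondrial fatty acid synthesis, was at 139 against 99.1, 384 against 325 and 244 against 196 CPM in dividing and other cells of libraries A, B and C. Ndufa5 was at 102 against 87.9, 275 against 207 and 277 against 210.4 CPM, and Ndufb7 at 172 against 141, 317 against 278 and 372 against 329 CPM. Sdhd was at 36.8 against 25.9, 116 against 102 and 80.8 against 66.7 CPM, and the assembly factor Ndufaf3 at 38.1 against 31.7, 61.8 against 49.3 and 70.5 against 58.0 CPM. These 5, chosen for their mean fold over the same libraries, were higher in dividing cells of each library, by less than the size rule, before TMM scaling. Nuclear members with a fold above 0 numbered 57 of 80 in library A, 51 of 85 in B and 43 of 80 in C. Of all genes measured there, 60.3%, 71.2% and 68.2% were above 0.

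At the other end were Ndufv3, Ndufa6, Cox7a2l, Uqcrh and Ndufa7. Ndufv3 was at 92.6 against 105 CPM in library A, 471 against 544 in B and 407 against 497 in C. Ndufa6, an accessory subunit of complex I, was at 236 against 234, 462 against 527 and 377 against 486 CPM. Cox7a2l, which helps join complexes III and IV into supercomplexes, was at 269.7 against 313, 494 against 539 and 457 against 525 CPM. Uqcrh was at 454 against 474, 857 against 975 and 1024 against 1217 CPM. Folds of these 5 lay between -0.36 and 0.01. Outside the symbol rule, Cycs was at 102 against 97.2, 269 against 205 and 169 against 112 CPM.

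Other mitochondrial gene lists gave few members past the rule. None of 16 measured TCA cycle genes, of 9 carrier and outer membrane genes or of 4 genes for mitochondrial transcription and RNA passed it in both B and C. Of 18 import genes, Timm50 and Tomm40, parts of the inner and outer membrane translocases, did. Timm50 was at 73.0 against 50.2 CPM in B and 81.2 against 51.3 in C, and Tomm40 at 84.5 against 57.6 and 80.5 against 54.6. Of 73 mitochondrial ribosomal protein genes, Mrpl18, Mrpl51 and Mrps22 passed, and of 5 regulators Nrf1 did, at log2 folds of 0.56 in B and 0.81 in C. These shares stand beside the 11.0% of all genes given above, and the genes of this paragraph that passed were counted in B and C only, Timm50 excepted, which passed in library A too (28.6 against 19.4 CPM). That value rests on 21 UMIs of Timm50 in dividing cells, with a fold of 0.54 (-0.14 to 1.18). With TMM factors none of the 6 genes passed in both B and C: the folds were 0.33 and 0.39 for Timm50, 0.35 and 0.28 for Tomm40, and 0.37 and 0.55 for Nrf1. Of the other list members named by rule, Tfam, which packages mitochondrial DNA, was at log2 folds of 0.29, 0.63 and 0.37 in libraries A, B and C. The dicarboxylate carrier Slc25a10 was at 0.53, 0.60 and 0.38, the TCA cycle genes Idh3a at 0.25, 0.37 and 0.41 and Dlat at 0.34, 0.24 and 0.41, and Etfa, which feeds electrons from fatty acid oxidation, at 0.26, 0.30 and 0.31. The assembly factors Coa6 and Tmem70, for complexes IV and V, were at 0.55, 0.24 and 0.16 and at 0.55, 0.09 and 0.26.

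Krt19 is a keratin of simple epithelium that is higher in ATII cells moving toward the type I fate. Cells with 2 or more Krt19 UMIs numbered 543, 2785 and 3709 in libraries A, B and C, against 13771, 1353 and 6915 cells with none. Along with Krt19, the summed ATII markers differed, at 149368 against 177294 CPM in B and 114415 against 153824 CPM in C, and the ATI markers, at 1594 against 1083 and 3031 against 1949.7 CPM. The 10 transitional markers, Krt19 included, summed to 3469 against 1600.0 and 4328 against 1751 CPM. Malat1 was higher too, at log2 folds of 0.16, 0.20 and 0.49 in libraries A, B and C. The part of any of these in the respiratory chain values was not tested.

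Nuclear members were nearly level in sum between these classes. Their sums were 14731 against 14432 CPM in library A, 35262 against 36421 in B and 34078 against 34943 in C, at log2 folds of 0.03 (0.01 to 0.05), -0.05 (-0.05 to -0.04) and -0.04 (-0.04 to -0.03). None of 78 nuclear members passed the size rule in all 3 libraries, where 0.771% of all 3630 genes were higher and 0 were lower. With TMM factors the folds were -0.09, -0.02 and -0.08. Direction in library A turned with the scaling. Before TMM scaling, nuclear members with a fold above 0 numbered 49 of 80 in library A, 23 of 84 in B and 20 of 80 in C. Of all genes measured there, 64.3%, 50.8% and 58.4% were above 0.

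The mt- sum was lower in cells with Krt19, at 13719.8 against 15619.7 CPM in library A, 5807 against 6397 in B and 4984 against 5447 in C. The log2 folds were -0.19 (-0.20 to -0.17), -0.14 (-0.15 to -0.13) and -0.13 (-0.14 to -0.12), all under the size rule. Over 13 alternatives, the folds stayed below 0 in each library, between -0.31 and -0.09 in A, -0.58 and -0.10 in B, and -0.28 and -0.09 in C. The 2 other limits on mitochondrial UMIs removed no cell and could not move these folds. Nor could the settings that changed only the set of nuclear members. The lowest values in B and C came from thinning each cell to 1000 UMIs before counting Krt19, which leaves cells of higher Krt19 in the high class. None of 7 mt- members measured in all 3 libraries passed the rule. mt-Cytb was at 3672 against 4102, 2389 against 2669 and 2459 against 2908 CPM, and mt-Nd4 at 2364 against 2736, 585 against 661 and 513 against 571 CPM. These 2 and mt-Nd1 were lower in each library. In library C, mt-Co1 (449.9 against 405 CPM), mt-Nd6 (34.9 against 31.6 CPM), mt-Nd2 (526 against 500.4 CPM) and mt-Nd5 (186 against 179 CPM) went the other way, and the median fold of the mt- members measured there was 0.06. mt-Cytb was at -0.24 in that library and the 7 mt- complex I members together at -0.04.

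**Figure D4:**
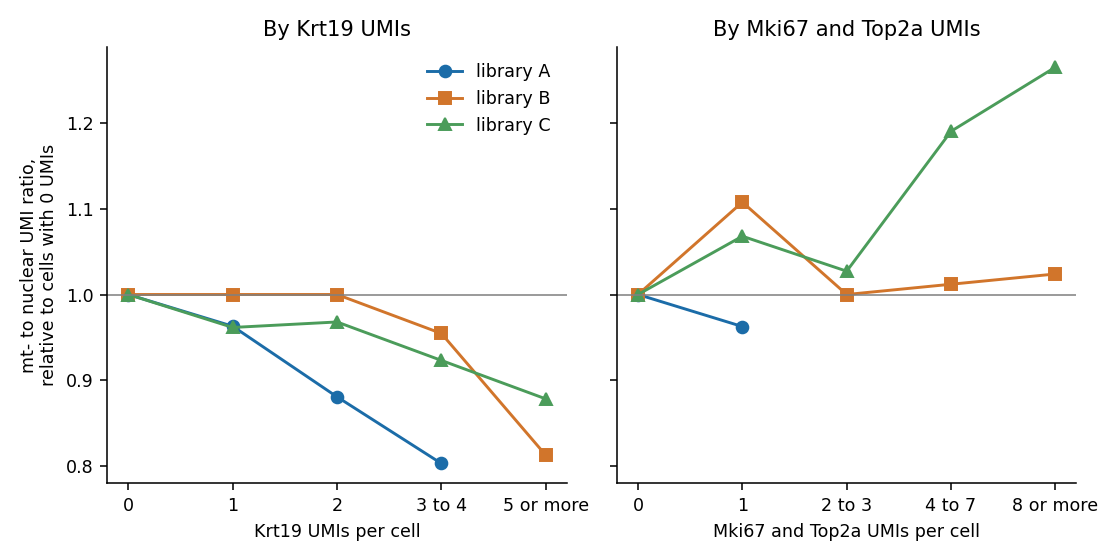
Ratio of mt- to nuclear UMIs in cells grouped by Krt19 UMIs (left) or by Mki67 and Top2a UMIs together (right), divided by the ratio in cells with 0 such UMIs of the same library; groups under 50 cells are left out. By Krt19, the ratio goes from 0.176 to 0.143 in B and from 0.156 to 0.137 in C. By Mki67 and Top2a, from 0 to 8 or more UMIs, it is 0.147, 0.157, 0.151, 0.175 and 0.186 in library C. In library B it is 0.167, 0.185, 0.167, 0.169 and 0.171, highest at 1 UMI.

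By number of Krt19 UMIs, the ratio in library B was 0.176 at 0, 1 and 2 UMIs, 0.168 at 3 to 4 and 0.143 at 5 or more. In library C it was 0.156, 0.150, 0.151, 0.144 and 0.137, and in library A it was 1.08, 1.04, 0.951 and 0.867 up to 3 to 4 UMIs. The mt- sum at 5 or more Krt19 UMIs was 4905 CPM in B and 4512 CPM in C. Crossing both classes gave the highest ratio of library B in dividing cells with 0 Krt19 UMIs, 0.181 (0.178 to 0.183), and the lowest in other cells with 2 or more, 0.161 (0.160 to 0.162). The same 2 groups were at 0.167 (0.165 to 0.169) and 0.143 (0.142 to 0.144) in library C.

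Single nuclear members differed little with Krt19. The highest by mean fold over libraries was Ndufv3, at 101 against 105 CPM in library A, 538 against 503 in B and 558 against 435 in C. Atp5l, Ndufs3, Ndufs4 and Cox5a followed with mean folds of 0.05 to 0.09. The lowest was Ndufb3, an accessory subunit of complex I, at 129 against 146, 189.8 against 245 and 169 against 196 CPM. Sdhd was next, at 23.5 against 26.2, 98.7 against 117 and 62.6 against 72.6 CPM, and Ndufa5 was at 79.7 against 89.1, 216 against 244 and 209.9 against 229.9 CPM. Ndufaf2 was at 28.7 against 24.6, 28.1 against 34.5 and 27.7 against 36.3 CPM, so its direction in A differed from that in B and C. In libraries B and C alone, 0 of 79 nuclear members were higher or lower past the size rule, where 3.33% and 0.345% of all genes were. Ndufs1 and Ndufaf3, the others of the 6 lowest, had mean folds of -0.13 and -0.11. Across all 78, 21 were below 0 in each library and 6 above, where 14.0% and 33.5% of all genes were. Outside the symbol rule, Cyc1 was at 75.8 against 80.7, 315 against 342 and 205 against 237 CPM, and Vdac1, the outer membrane channel, at 65.8 against 60.7, 283 against 249.9 and 339 against 258 CPM. In library B alone, Cox6a2 was at 77.6 against 47.0 CPM, a fold of 0.71 (0.58 to 0.87), the only nuclear member of 84 past the rule there, where 3.68% of all genes were higher and 0.616% lower. In libraries A and C it was at -0.04 and 0.28.

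The mt- members also varied between cells of the same library. With each cell thinned to 1000 UMIs, cells held a mean of 15.4 ± 6.20 mt- UMIs in library A, 6.06 ± 3.81 in B and 5.20 ± 3.40 in C (SD over cells). Nuclear-member UMIs had means of 14.5, 35.4 and 34.9. Thinned cells with 0 mt- UMIs were 0.0305%, 5.67% and 8.49% of the 3 libraries. Across cells, the correlation of the mt- with the nuclear count was -0.06, -0.06 and -0.10, over counts that share a fixed total.

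A group of cells near 0 was seen in libraries B and C, and the classes used to describe it were chosen after seeing the data. Cells with at most 0.05% of UMIs from mitochondrial genes numbered 1 in library A, 199 in B and 985 in C. Nuclear members were not low in them, at 38972 CPM in B and 38585 CPM in C. In library C, 78.9% of these cells had 0 Malat1 UMIs, against 8.34% of cells with 0.8% to 1.6% mitochondrial UMIs. In library B the shares were 24.1% and 1.02%, so that most of these cells of B held Malat1. Of all cells, 41 of 16367, 157 of 5593 and 2775 of 14580 had 0 Malat1 UMIs. After thinning, 2.65%, 21.1% and 31.7% did.

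**Figure D5:**
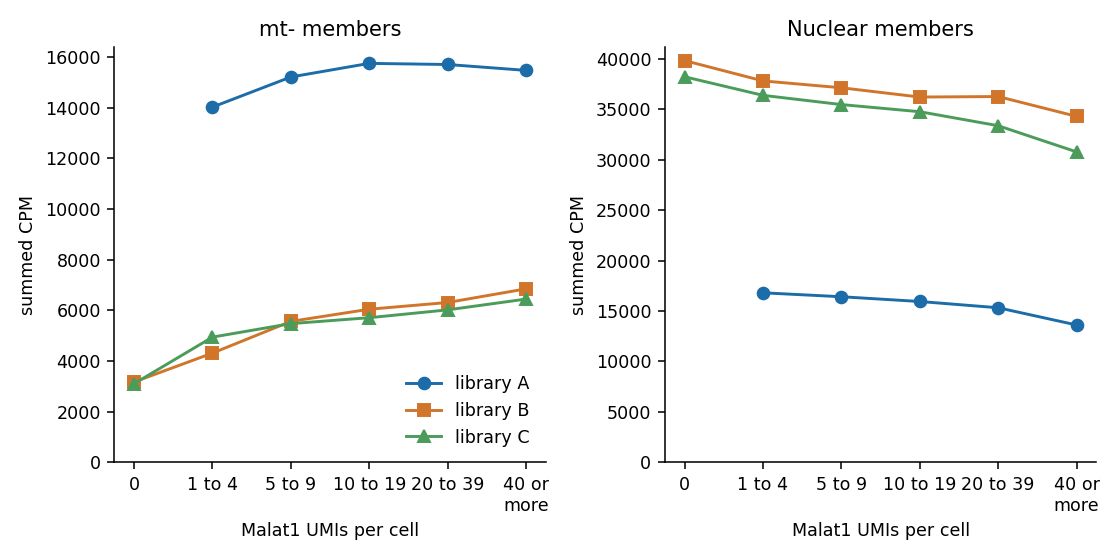
Summed CPM of mt- members (left) and nuclear members (right) in cells grouped by their number of Malat1 UMIs, in libraries A, B and C; the 41 cells of library A with 0 are not drawn. From 0 to 40 or more Malat1 UMIs, the mt- sum goes from 3171 to 6847 CPM in B and from 3104 to 6443 CPM in C, while the nuclear sum goes from 39817 to 34291 CPM and from 38212 to 30768 CPM.

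Cells with 0 Malat1 UMIs were also low in mt- members, and not in nuclear members. At 0 Malat1 UMIs the mt- sum was 3171 CPM in B and 3104 CPM in C, and at 40 or more it was 6847 and 6443 CPM. Set against cells with 10 or more Malat1 UMIs, cells with 0 had 11 of 11 mt- members lower in B and 8 of 8 in C, where 41.1% and 40.9% of all genes were lower. Of the nuclear members, 3 of 85 were higher and 1 lower in library B, and 3 of 80 higher and 0 lower in library C, where 10.6% and 8.87% of all genes were higher. Uqcrc1 was higher in both, at 265 against 157 CPM and 247 against 145 CPM. The mt- members differed in degree: mt-Nd6 was at 2.57 against 46.9 CPM in library B and 3.94 against 53.8 in C, and mt-Cytb at 1779.9 against 2579 and 1957 against 2892 CPM. The low values of mt-Nd6 rest on 3 UMIs in B and 36 in C. Cells with 0 had median counts of 6854 UMIs in B and 3029 in C. The part of lost RNA, of damaged cells or of the cell types present in this pattern was not tested.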

How the data were processed

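Single-cell RNA of mouse lung ATII cells was measured by droplet sequencing of 3′ ends. The authors deposited 1 matrix of raw UMI counts per gene and barcode. Per the submitters' processing notes, bcl2fastq and Cell Ranger 6.0.1 were used, with builds GRCm38 and mm10; cell calling, doublet removal and demultiplexing are not given in the sources used here, and no doublets were removed here. The tag libraries were not used here.

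Symbols came from GENCODE M21 (GRCm38); the 147 IDs without one hold 0.00981% of UMIs. Cells were kept with at least 1000 UMIs, 500 genes and at most 15% mitochondrial UMIs, which left 36540 of 36584 barcodes holding 48676834 to 63658436 UMIs per library. The limit of 15% removed none, as the deposited barcodes reached only 4.87%, 2.27% and 1.67% in libraries A, B and C. Counts were summed per library and class, scaled to CPM and compared as log2 folds with a pseudocount of 1 CPM. Intervals are exact Poisson (CPM), conditional binomial (folds) and Clopper-Pearson (shares), at 95%; those of folds do not include the pseudocount. A count of 0 allows up to 3 counts. No test was run, since the matrix is 1 pooled sample without replicates and cells are not replicates. The size rule asks for a log2 fold of 0.5 or more in size, with 20 CPM in either class, in each of libraries A, B and C, which all held at least 50 cells of each class.

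The members, the gene lists and the added alternatives were chosen with earlier results of these data known. Named are all mt- members, the 6 highest and 6 lowest nuclear members of each comparison by mean fold, the 6 with the highest mean CPM and the 6 with the widest range over libraries, tissue isoforms, catalytic subunits, Cycs, Cyc1, class genes, Malat1 and Sftpc, and the 2 members of each pathway list with the largest mean fold, printed for mitochondrial lists in part; other list members past the rule, Ndufb4, Atp5k, Ndufa12, Atp5g2 and other members named for libraries B and C or for Malat1 were chosen after their values were seen. Of the members this rule names, 1 is not reported here. Shared 90-base windows from the last 500 bases of member transcripts were searched in annotated transcripts only. Alternatives covered scaling (TMM from edgeR 4.0.16), filters, depth, class cutoffs and member sets. Fold code was tested on simulated counts. Python 3.11.15 ran the analysis, with scipy 1.17.1, pandas 2.3.3 and numpy 2.4.6.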

Additional observations from a re-analysis of the deposited data

How the results depend on the processing

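Of 207 values recomputed under alternatives, 135 stayed within the counting interval or count limit of the value reported and 72 moved. A further 38 values come from other limits on mitochondrial UMIs, which removed no cell and so could not move. Some of the 207 were fixed as well. Folds of the kind of member that a setting left unchanged could not move. Counts of 0 could not rise under a log2 fold of at least 1 or a pseudocount of 5 CPM. The minimum of 2000 UMIs per cell moved none. No fold of summed members reached 0.5 in size in all 3 libraries under any alternative. In library B alone, the mt- fold with Krt19 did, at -0.58 after thinning to 1000 UMIs. Sign changed for 5 folds. With TMM factors these were the nuclear fold in A for both comparisons and the mt- fold of dividing cells in B and C. Without surfactant genes it was the nuclear fold with Krt19 in A. Values below are log2 folds in libraries A, B and C.

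With TMM factors, dividing cells gave -0.11, -0.21 and -0.30 for nuclear members and -0.27, -0.13 and -0.15 for mt- members. Cells with Krt19 gave -0.09, -0.02 and -0.08 for nuclear and -0.31, -0.11 and -0.18 for mt- members. Without surfactant genes in the total, dividing cells gave 0.04, -0.02 and -0.06 (nuclear) and -0.12, 0.05 and 0.09 (mt-), and cells with Krt19 gave -0.02, -0.09 and -0.10 (nuclear) and -0.23, -0.18 and -0.19 (mt-).

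Thinning to 1000 UMIs gave, in dividing cells, 0.19 in A and -0.04 in B (nuclear) and 0.02 in B and 0.17 in C (mt-). With Krt19 it gave 0.08, -0.12 and -0.08 (nuclear) and -0.22, -0.58 and -0.28 (mt-). Weighting classes to the same depth moved library C alone, to -0.01 (nuclear) and 0.11 (mt-) in dividing cells and -0.03 (nuclear) with Krt19.

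Requiring 2 UMIs of Mki67 and Top2a moved the mt- fold to 0.01 in B and 0.15 in C and the nuclear fold to -0.04 in C. It also moved the count of nuclear members higher in dividing cells from 0 to 1, Ndufaf2, as only B and C then had 50 cells; B and C alone gave 1 as well. Taking 1 or more Krt19 UMIs as the high class gave 0.00, -0.03 and -0.01 (nuclear) and -0.09, -0.10 and -0.09 (mt-).

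Within the low class of the other comparison, dividing cells gave 0.04, -0.03 and -0.04 (nuclear) and, in B and C, 0.03 and 0.09 (mt-). Krt19 gave -0.06 in B and -0.05 in C (nuclear) and -0.16 in B (mt-).

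The mt- to nuclear ratio in A, B and C was 1.11, 0.174 and 0.155 with nuclear subunits only. Without mt-Nd6 and the mt- members with annotated chromosome 1 copies, the ratio was 0.949, 0.151 and 0.138. That setting also moved the mt- fold with Krt19 to -0.15 in B and -0.16 in C. The ratio was 1.34, 0.215 and 0.187 without nuclear members that share windows, where dividing cells of C were at -0.04 (nuclear). With only cells that had a Malat1 UMI it was 0.173 in B and 0.168 in C, and dividing cells of C were at -0.01 (nuclear) and 0.03 (mt-). The last pair of settings and the counts over B and C alone, with and without TMM factors, were chosen after seeing the data. The cause of these moves was not tested.

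No paired analysis was possible because no column carries a sample or replicate number and the results come from no test. Intervals cover counting error only, each group has 1 library, and the 171 dividing cells of library A limit its folds the most.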

Other observations

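Genes of the response to low oxygen, and 2 of 14 measured glycolysis genes, were higher with Krt19 in libraries B and C. Of 7 hypoxia genes measured in libraries B and C, 6 were higher in cells with 2 or more Krt19 UMIs in both, where 3.33% of all 4352 genes were: Adm, Bnip3, Egln1, Egln3, Ndrg1 and Vegfa. Over all 3 libraries 4 were measured and 0 passed the size rule. Bnip3, a receptor for the removal of mitochondria, was at 273 against 149 CPM in library B and 509 against 173 CPM in library C. Ndrg1 was at 24.9 against 2.91 and 52.1 against 3.23 CPM, and Vegfa, an angiogenic factor, at 42.9 against 28.1 and 75.8 against 26.5 CPM. The glycolysis genes were Gapdh (6567 against 3981 and 10126 against 4434 CPM) and the glucose transporter Slc2a1 (53.5 against 32.1 and 55.5 against 25.1 CPM). Higd1a, a hypoxia-induced partner of complex IV, was the only 1 of 16 assembly factors outside the symbol rule to pass, at 466 against 319.9 and 440.2 against 261 CPM. In library A, Bnip3 was at 42.7 against 43.8 CPM and Slc2a1 at 20.9 against 21.5 CPM.

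Between libraries, glycolysis genes summed to 1244 CPM in A, 15490.1 in B and 15484 in C. The 78 mitochondrial ribosomal protein genes summed to 2887, 6705 and 7271 CPM, and the 20 import genes to 862, 2093 and 2105 CPM. The 13 listed nuclear regulators of respiration summed to 334, 309 and 259.7 CPM. Cytosolic ribosomal protein genes summed to 71924, 228204 and 248746 CPM.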
